A study of Mus musculus with 4 samples.

Results

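Border macrophages are the macrophages that line the outer surfaces of the brain. They sit in the perivascular spaces, the meninges and the choroid plexus, take up material from blood and cerebrospinal fluid, and differ from microglia, the macrophages of the brain tissue itself. Genes commonly used to recognise them include the endocytic receptors Mrc1, Cd163, Lyve1 and Folr2, the phosphatidylserine receptor Timd4 and the chemokine Pf4. Marco and Cd5l are better known from macrophages of spleen, liver and body cavities. The 10 genes described here, Cd209f, Cd209g, Marco, Cd5l, Mrc1, Cd163, Lyve1, Timd4, Folr2 and Pf4, were picked by name as perivascular and meningeal macrophage genes out of 55467 gene rows. They were picked with earlier results of the same libraries known, in which Cd209f, Cd209g, Marco and Cd5l were among the largest increases, so their difference between genotypes is given as a description without a p-value.

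RNA came from 4 libraries of primary astrocytes of Mus musculus, 2 from wild-type (WT) mice and 2 from mice without CD38 (CD38 KO), an enzyme of the cell surface that consumes NAD+. Both genotypes were treated alike: cortices of pups 1 to 3 days old were dissociated, and the cells were grown in medium with 10% serum for 14 days. Flasks were then shaken for 12 h, the medium with the cells that came loose was discarded, and the attached cells were replated and collected 5 days later. The sources used here name neither the strain, the deleted exons and the sex of the pups nor whether replicates came from separate animals or cultures. P-values therefore measure only the spread between these libraries, which may be technical, and loss of Cd38 cannot be told apart from any strain difference between the genotypes.

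Values are FPKM, which scales fragments by transcript length and library depth, so levels can be compared between genes. Depth recovered from the steps between low values was 26840820 to 29088360 fragments per library. Cd38 itself measured 3.13 and 3.45 FPKM in the WT libraries against 0.0222 FPKM in both CD38 KO libraries, which matches their labels. The astrocyte markers Gfap (1198 to 1390 FPKM) and Aqp4 (252 to 331 FPKM) were abundant in every library. All libraries also held transcripts of myeloid cells: the summed level of 22 general macrophage genes was 207 and 194 FPKM in WT and 1047 and 932 FPKM in CD38 KO.

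The 10 genes did not behave as 1 group. Cd209f, Cd209g, Marco and Cd5l were detected in all libraries and were 12.4-fold to 31.2-fold higher in CD38 KO, while Mrc1, Cd163, Lyve1, Timd4, Folr2 and Pf4 stayed below 1 FPKM in every library of both genotypes. The label of the group is therefore not borne out by Mrc1, Cd163, Lyve1, Timd4, Folr2 and Pf4. The 4 abundant genes are called the Marco, Cd5l and Cd209 genes below. Genes were tested where the 4 libraries averaged 1 FPKM or more, which 4 of the 10 genes did. All 4 were called higher in CD38 KO (adjusted p under 0.05 in limma) and 0 lower, against 8.0% and 6.35% of all 13064 tested genes. The genes were chosen on this contrast, so nothing is read from that count. Cd209g reached the minimum only through its CD38 KO libraries and could hardly fail to differ. The same limit holds below for Spic, Cx3cr1, Il10ra, Stab1, Tmem119, Msr1, Itgam, Irf8 and Snora20, with WT means below 1 FPKM. Hpgd and Olfml3 reached the minimum only through WT. Counts of list genes called below include such genes.

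**Figure D1:**
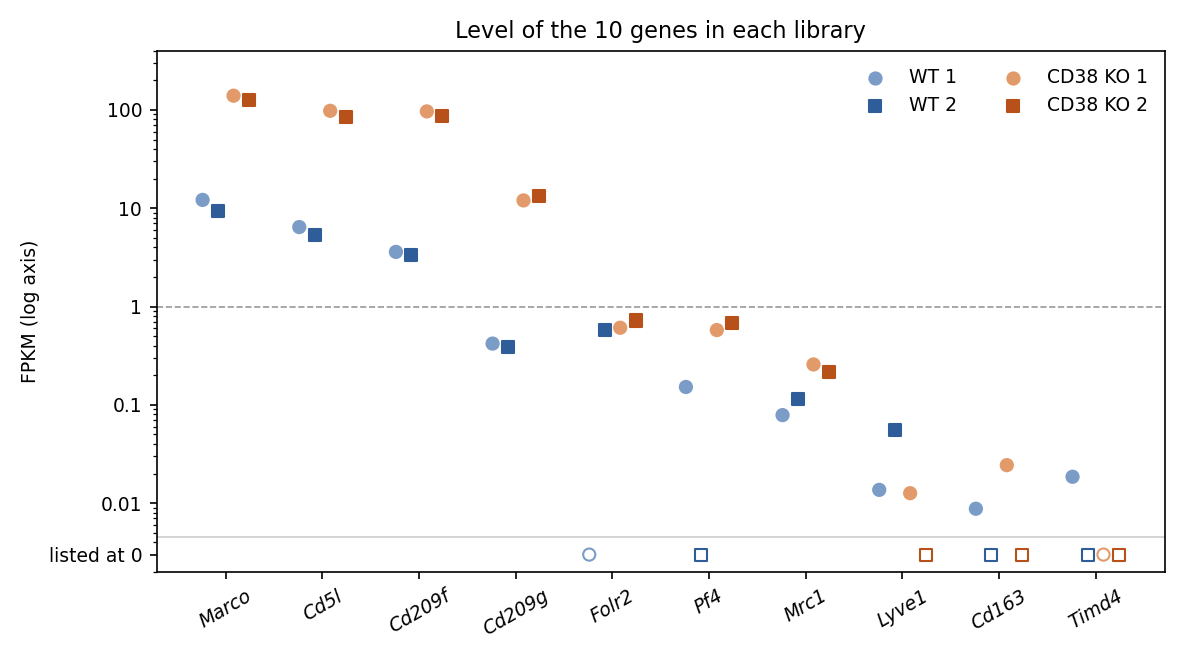
FPKM on a log axis of each of the 10 genes in the 4 libraries, with open symbols for values listed at 0 and a dashed line at 1 FPKM, the mean needed for testing. Marco, Cd5l and Cd209f lie at 84.0 FPKM or more in both CD38 KO libraries and at 12.2 FPKM or less in WT, while the 6 genes on the right lie below 1 FPKM everywhere.

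Cd209f and Cd209g are neighbours on mouse chromosome 8 that encode C-type lectins of the DC-SIGN family. Their promoters are shown because the genes moved together and share sequence up to and past their starts. The sequences are from the RefSeq promoter table on GRCm38.p6, 5′ to 3′, and end where the first exon of a GENCODE coding transcript begins, with capitals for the longest run of identical bases in both.
Cd209f: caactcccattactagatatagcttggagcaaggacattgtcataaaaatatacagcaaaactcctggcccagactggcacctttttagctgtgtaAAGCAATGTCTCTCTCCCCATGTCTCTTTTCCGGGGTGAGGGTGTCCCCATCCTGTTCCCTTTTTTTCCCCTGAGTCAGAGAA
Cd209g: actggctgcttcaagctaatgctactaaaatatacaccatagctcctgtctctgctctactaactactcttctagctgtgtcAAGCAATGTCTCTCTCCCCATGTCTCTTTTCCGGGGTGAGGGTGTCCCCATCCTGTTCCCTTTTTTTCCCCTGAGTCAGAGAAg
The stretches are chr8:4105836-4106014 on the minus strand for Cd209f and chr8:4134486-4134651 on the plus strand for Cd209g. The GENCODE gene Cd209g starts before its stretch, at 4134098, so the stretch lies inside that gene and the RefSeq and GENCODE starts differ. The shared run is 83 bases within the printed parts and 180 bases when the whole windows, 250 bases before to 50 after the RefSeq start, are compared.

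Marco and Cd5l lie on other chromosomes. Their 250 bases before the RefSeq start are shown because they hold a match to GAGGAAG, a core of sites of the myeloid factor PU.1, on either strand, given in capitals.
Marco: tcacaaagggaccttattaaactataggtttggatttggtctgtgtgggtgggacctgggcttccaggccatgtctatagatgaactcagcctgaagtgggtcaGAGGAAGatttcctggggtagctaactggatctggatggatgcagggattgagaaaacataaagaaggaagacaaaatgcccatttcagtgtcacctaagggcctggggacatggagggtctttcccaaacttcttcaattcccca
Cd5l: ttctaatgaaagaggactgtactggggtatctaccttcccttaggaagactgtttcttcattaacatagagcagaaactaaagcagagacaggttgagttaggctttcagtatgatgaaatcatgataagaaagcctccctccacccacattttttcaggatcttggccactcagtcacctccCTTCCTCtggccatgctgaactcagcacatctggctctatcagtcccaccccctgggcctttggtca
These are chr1:120505025-120505274 on the minus strand and chr3:87357631-87357880 on the plus strand. Of 9 members with an entry in the table, 4 held GAGGAAG on either strand in the 250 bases before the start, namely Marco, Cd5l, Mrc1 and Pf4, as did 10.6% of 32851 promoters. TGANTCA, the AP-1 motif, was found in Cd209f, Cd209g and Folr2 and in 6.75% of promoters. TATAAA was found in Cd209f and Cd209g, 29 and 43 bases before their RefSeq starts, and in 12.4% of promoters. Both TATAAA matches lie past the point where a GENCODE coding transcript begins, so they are not in the printed stretches. TGCTGAC, a MAF half-site, was found in Timd4 and in 3.81% of promoters. Each motif was searched on both strands, and a match describes letters and no binding. The high genes thus share no searched motif across all 4, and GAGGAAG also occurs before Mrc1 and Pf4, which stayed below 1 FPKM.

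Among the lectins, Cd209f (ENSMUSG00000051906, GRCm38 chromosome 8, 4102787 to 4105835) measured 3.60 FPKM in WT 1 and 3.33 in WT 2, against 96.6 FPKM in CD38 KO 1 and 87.5 in CD38 KO 2. Both CD38 KO libraries lay far above both WT libraries. The ratio of group means was 26.6, from 3.46 ± 0.187 to 92.1 ± 6.42 FPKM (SD, n = 2 each). These levels stand for about 194 fragments in WT and 5439 in CD38 KO, which puts counting error alone at 23.0-fold to 30.8-fold (95%, exact).

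Cd209g (ENSMUSG00000079168, chromosome 8, 4134098 to 4137707) measured 0.420 and 0.389 FPKM in the WT libraries against 12.0 and 13.2 FPKM in the CD38 KO libraries, again without overlap. The group means differed 31.2-fold, and with about 22 fragments in WT counting error alone spans 20.7-fold to 50.7-fold. Cd209g ran at 11.7% of the Cd209f level in each WT library and at 12.4% and 15.1% in CD38 KO. The longest coding transcripts of the pair are 91.5% identical and hold an identical run of 416 bases. Of all 100-base windows of the Cd209g transcript, 29.6% also occur in Cd209f. The sources used here do not say how fragments that match both were shared out, so the Cd209g level is uncertain and could hold fragments of Cd209f.

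The other lectins of the cluster were nearly silent. Of Cd209a, Cd209b, Cd209c, Cd209d and Cd209e, 3 were listed at 0 in every library, and none went above 0.0737 FPKM. Their transcripts share no 50-base window with Cd209f, and are 63.3% (Cd209c) to 71.4% (Cd209b) identical to it over aligned bases, so the high Cd209f value cannot be read onto them. From 400 kb before Cd209f to 250 kb after it, 8 other genes were tested. Ctxn1, a small membrane protein gene, was the 1 called higher (log2 change 0.38, adjusted p = 0.00484; lost without CD38 KO 1, 0.0559, or CD38 KO 2, 0.0586), 0 were called lower (1 at an unadjusted p under 0.05), and the log2 changes of the 8 ran from -0.30 to 0.38. None of these 8 came near the log2 changes of Cd209f and Cd209g on the same scale, 4.38 and 3.28. The GENCODE genes of the pair lie 28.3 kb apart.

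**Figure D2:**
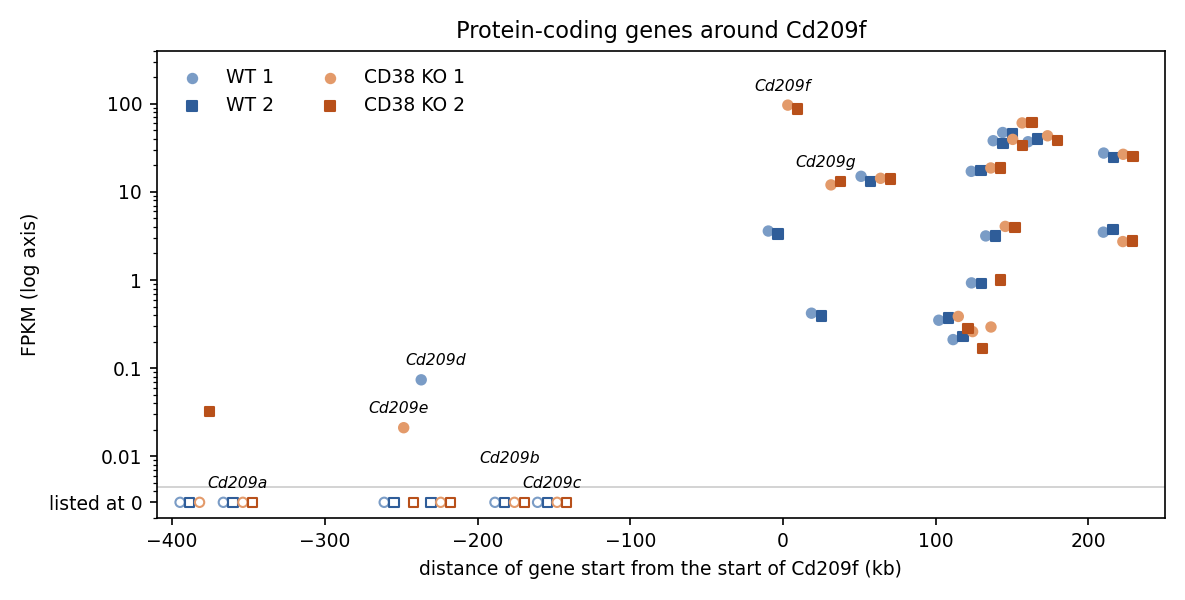
FPKM on a log axis of 19 protein-coding genes against the distance of their start from that of Cd209f, from 400 kb before to 250 kb after it, with the 4 libraries of a gene drawn side by side and open symbols for values listed at 0. Cd209f and Cd209g stand apart between genotypes, and the other Cd209 genes lie at or near 0.

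Marco (ENSMUSG00000026390, chromosome 1, 120474538 to 120505024), a class A scavenger receptor that binds bacteria and particles, was the most abundant of the 10 in all 4 libraries. Its level was 12.2 FPKM in WT 1 and 9.31 in WT 2, against 139.6 in CD38 KO 1 and 126.1 in CD38 KO 2. The CD38 KO values do not come near the WT values, and the group means of 10.7 ± 2.01 and 133 ± 9.56 FPKM (SD, n = 2 each) differ 12.4-fold. Msr1, the other class A scavenger receptor of macrophages, rose 4.91-fold from 0.743 and 0.459 to 3.62 and 2.29 FPKM (log2 change 1.29, adjusted p = 0.0135), a call lost without WT 1, WT 2 or CD38 KO 1 (adjusted p up to 0.0896) and without a filter (0.0934).

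Cd5l (ENSMUSG00000015854, chromosome 3, 87357881 to 87371073) encodes a protein that macrophages secrete and that circulates bound to IgM. Its level was 6.44 FPKM in WT 1 and 5.38 in WT 2, against 98.0 in CD38 KO 1 and 84.0 in CD38 KO 2, with no overlap. Its group means were 5.91 ± 0.746 and 91.0 ± 9.93 FPKM (SD, n = 2 each), a 15.4-fold difference. Cd5l has 1 annotated transcript, which holds about 607 fragments in WT and 9870 in CD38 KO. Nr1h3, the nuclear receptor LXR alpha that is known to drive Cd5l, measured 10.9 and 10.2 FPKM in the WT libraries against 13.3 and 12.5 in the CD38 KO libraries and was not called (adjusted p = 0.0593).

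Mrc1 (ENSMUSG00000026712, chromosome 2, 14229392 to 14332057), the mannose receptor CD206 and the most used marker of border macrophages, was near absent. Its level was 0.0787 FPKM in WT 1 and 0.115 in WT 2, against 0.258 in CD38 KO 1 and 0.218 in CD38 KO 2. These stand for 11, 17, 39 and 33 fragments, in that order, all within 0.1 of a whole number. The CD38 KO values were both higher, with a ratio of 2.44 (1.56 to 3.92 for counting error alone). Even the highest Mrc1 value lay below every value of Cd209g.

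Cd163 and Lyve1, receptors for haemoglobin bound to haptoglobin and for hyaluronan, gave almost no fragments. Cd163 (ENSMUSG00000008845, chromosome 6, 124304656 to 124330527) stood at 1 fragment in WT 1 and 3 in CD38 KO 1 and was listed at 0 in the other libraries. Lyve1 (ENSMUSG00000030787, chromosome 7, 110850607 to 110863239) measured 0.0137 FPKM in WT 1, 0.0560 in WT 2 and 0.0126 in CD38 KO 1, and was listed at 0 in CD38 KO 2. Its single-fragment values and its highest value, about 4 fragments, do not separate the genotypes beyond counting error. A count of 0 allows up to 3 fragments, which is 0.0379 FPKM for Lyve1 and 0.0241 FPKM for Cd163 in CD38 KO 2.

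Timd4 was as low, while Folr2 and Pf4 reached 0.721 and 0.686 FPKM at most. Timd4 (ENSMUSG00000055546, chromosome 11, 46810800 to 46844332), a receptor for phosphatidylserine on dying cells, gave 1 fragment in WT 1 and was listed at 0 in the other 3 libraries. Folr2 (ENSMUSG00000032725, chromosome 7, 101839988 to 101857194), the folate receptor beta, was listed at 0 in WT 1 and stood at 0.574 FPKM in WT 2 against 0.609 and 0.721 FPKM in CD38 KO. The Folr2 difference therefore rests on WT 1: it is 0.378 FPKM with that library and 0.0908 FPKM without it. Pf4 (ENSMUSG00000029373, chromosome 5, 90772435 to 90773383), platelet factor 4, measured 0.152 FPKM in WT 1 and 0.577 and 0.686 FPKM in the CD38 KO libraries, and was listed at 0 in WT 2. Pf4 lies on the chromosome of Cd38 and on a short transcript, where 3 fragments are already worth 0.247 FPKM or so. Ppbp, another platelet chemokine, was listed at 0 in every library.

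By non-overlap alone, 7 of the 10 genes had both CD38 KO libraries above both WT libraries, and 1, Lyve1, had both below. Among tested genes these shares are 30.4% and 29.5%, and 3 of the 7, Mrc1, Folr2 and Pf4, were too low to be tested. Lyve1 was too low as well, and its WT 1 and CD38 KO 1 values stand for 1 fragment each, so their order rests on scaling. In order of mean level Marco came first, Cd5l and Cd209f next and Cd209g after them, although Folr2 exceeded Cd209g in WT 2. Cd5l and Cd209f changed places between CD38 KO libraries, 98.0 against 96.6 FPKM in CD38 KO 1 and 84.0 against 87.5 FPKM in CD38 KO 2, and so do not differ there beyond their spread. In WT their order was the same in both libraries, with Cd5l at 5.91 and Cd209f at 3.46 FPKM on average.

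Replicates of a genotype differed little beside these gaps. Marco, Cd5l, Cd209f and Cd209g were 1.31-fold, 1.20-fold, 1.08-fold and 1.08-fold higher in WT 1 than in WT 2, where the summed general macrophage genes were 1.07-fold higher. In CD38 KO 1 over CD38 KO 2 the ratios were 1.11 for Marco, 1.17 for Cd5l and 1.10 for Cd209f against 1.12 for the summed genes, and Cd209g alone of the 4 went the other way at 0.908.

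General macrophage genes were higher in the same libraries. Of 22 such genes, from the growth factor receptor Csf1r to the complement chains C1qa, C1qb and C1qc, 21 were tested, 20 were called higher and 0 lower, with a median log2 change of 2.15. Over all tested genes 14.4% were called and the median log2 change was 0.00. C1qc rose 10.6-fold (log2 change 3.10, adjusted p = 4.83e-05), C1qb 11.4-fold (adjusted p = 6.61e-05), the Fc receptor subunit Fcer1g from 7.55 to 60.4 FPKM (adjusted p = 6.61e-05) and the protease Ctss 6.09-fold (adjusted p = 6.75e-05). The 20 called genes differed 2.68-fold to 11.4-fold. The gene left over was Cd14, a co-receptor for bacterial lipopolysaccharide, at 56.5 and 59.1 FPKM in WT and 58.7 and 58.0 FPKM in CD38 KO (adjusted p = 0.862). In bulk RNA, more cells of a type and more RNA per cell cannot be told apart, and the part of macrophage number in the differences of the 10 genes was not tested.

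Set against the summed general macrophage genes of the same library, the 4 abundant genes and Mrc1 parted ways. Cd209f was 1.74% and 1.72% of that sum in WT and 9.23% and 9.39% in CD38 KO, a ratio of 5.39. Cd209g was at 0.203% and 0.201% in WT and 1.15% and 1.42% in CD38 KO, a ratio of 6.36. For Marco the shares were 5.88% and 4.79% against 13.3% and 13.5% (ratio 2.52), and for Cd5l 3.11% and 2.77% against 9.36% and 9.01% (ratio 3.12). No library of one genotype overlapped the other for any of these 4. Mrc1 went the other way, from 0.0380% and 0.0595% in WT to 0.0246% and 0.0234% in CD38 KO. The sum leans on Lyz2 and Cd14, and without them the 4 ratios were 4.09, 4.83, 1.91 and 2.37. These shares were not tested, since the members were chosen on the same values. The sum itself rose 4.93-fold, and the 20 genes in it that were called rose 2.68-fold to 11.4-fold. Of the microglial genes, 5 were called higher, by 1.23-fold to 12.1-fold, and 1 lower. All 4 genes lay above both ranges. Marco, at 12.4-fold, did so narrowly, and Cd5l, Cd209f and Cd209g were at 15.4-fold, 26.6-fold and 31.2-fold. Genes of both lists, such as C1qb at 11.4-fold and Cx3cr1 at 12.1-fold, also rose more than the sum. A rise above the sum was therefore not particular to the 4 genes.

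**Figure D3:**
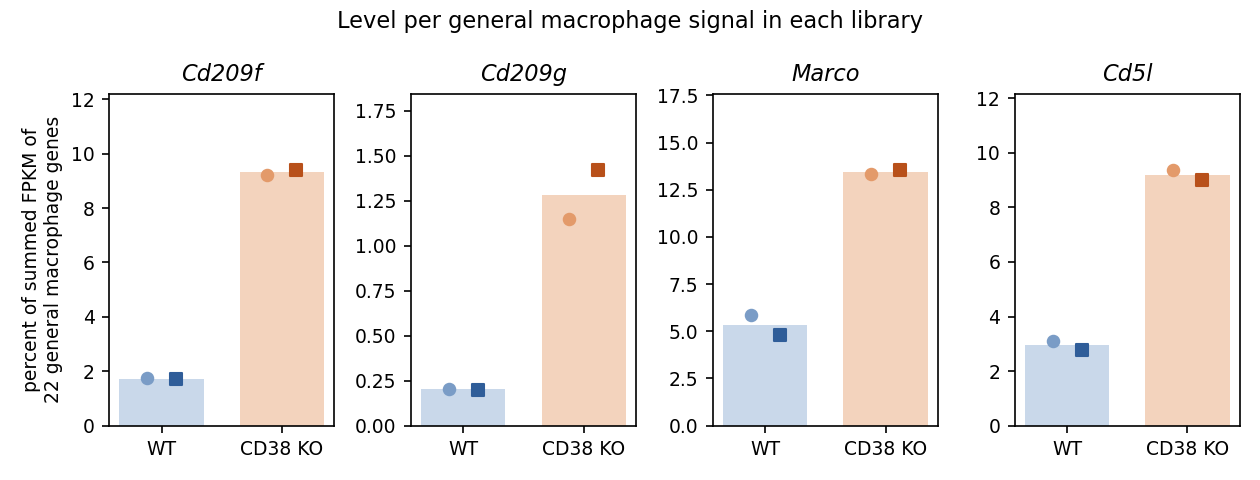
Level of Cd209f, Cd209g, Marco and Cd5l as a percent of the summed FPKM of 22 general macrophage genes in the same library, with bars for the mean of 2 libraries, circles for replicate 1 and squares for replicate 2. Each gene has its own axis from 0, and both CD38 KO libraries lie above both WT libraries for all 4.

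Other genes known from border macrophages gave a mixed picture. Of 18 further genes, 9 were tested, 4 rose, 2 fell and 3 were not called, with a median log2 change of 0.38. Ms4a7, a membrane protein of border macrophages, rose 6.97-fold from 4.34 and 3.70 to 27.7 and 28.3 FPKM (log2 change 2.53, adjusted p = 6.61e-05). Ms4a6c rose 5.14-fold (adjusted p = 0.00105) and Stab1, the scavenger receptor stabilin-1, 7.77-fold (adjusted p = 0.00195). Clec4a2 rose 5.47-fold (adjusted p = 0.00527) but lost the call without CD38 KO 1 (adjusted p = 0.0916), CD38 KO 2 (0.069) or a filter (0.0712). Hpgd, which breaks down prostaglandins, fell 4.17-fold from 2.37 to 0.568 FPKM (adjusted p = 0.00552), and Gas6, a ligand of phagocytic receptors, fell from 295.4 to 255.5 FPKM (adjusted p = 0.0333), a call lost without any 1 library (up to 0.159). In WT, Gas6 alone exceeded the summed level of the 22 general macrophage genes (200 FPKM), so its fall cannot be assigned to macrophages. Apoe, not called, lay higher still at 5151 FPKM in WT. Which cells made Hpgd was not tested. The coagulation factor gene F13a1 was at most 0.0466 FPKM and Clec10a at most 0.277 FPKM, and Ccl24 was listed at 0 throughout.

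Microglial genes were split as well, and bulk RNA does not show which cells made them. Of 13 genes 7 were tested, 5 rose and 1 fell, with a median log2 change of 0.86. Fcrls, an Fc receptor-like protein of microglia, rose 10.5-fold (adjusted p = 4.51e-05), the fractalkine receptor Cx3cr1 12.1-fold from 0.527 to 6.38 FPKM (adjusted p = 0.000184) and Trem2, a lipid receptor, 4.73-fold (adjusted p = 0.0019). Tmem119, a membrane protein of microglia, rose 3.46-fold (adjusted p = 0.0391) but lost the call without any 1 library (up to 0.167), and each fit without 1 library called 3 genes of the list higher. Olfml3 fell 3.28-fold (adjusted p = 0.00518), and Sall1 was not called, at 17.0 FPKM in WT and 14.9 FPKM in CD38 KO (adjusted p = 0.13). Whether macrophages made Olfml3 and Sall1 was not tested. Of the defining markers Siglech was listed at 0 in all libraries, and P2ry12 lay between 0.243 and 0.633 FPKM in all of them.

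Relatives and partners of the 10 genes moved less. Of 14 relatives 3 were tested, with Msr1 higher as given above. Cd44, a hyaluronan receptor related to Lyve1 that astrocytes also make, fell from 312 to 272 FPKM (adjusted p = 0.0472), a call lost without any 1 library (up to 0.193). Mrc2, the sister of Mrc1 found on cells of the connective tissue, measured 2.00 and 2.52 FPKM in the WT libraries against 3.78 and 1.84 in the CD38 KO libraries and was not called (adjusted p = 0.682). In the list of other scavenger receptors and haem handling, 4 of 10 tested genes rose and 0 fell (median log2 change 0.16). Cd36, a receptor for lipoproteins and dying cells, rose 5.79-fold from 2.46 to 14.2 FPKM (adjusted p = 0.000102). Blvra, Hmox1 and Colec12 rose 1.24-fold, 1.19-fold and 1.55-fold (adjusted p = 0.0237, 0.0386 and 0.0414), and these 3 calls were lost without any 1 library (up to 0.197).

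The growth factors on which macrophages live did not differ detectably. Csf1 measured 188 and 175 FPKM in the WT libraries against 168 and 188 in the CD38 KO libraries (log2 change -0.03, adjusted p = 0.82), and Il34 at 13.4 against 12.5 FPKM (log2 change -0.09, adjusted p = 0.355). Of 15 tested growth factors and regulators 3 rose and 0 fell, with a median log2 change of 0.14. Tgfb1 rose 3.03-fold (adjusted p = 0.000642), while the transcription factors Cebpa (2.15-fold, adjusted p = 0.014) and Maf (1.49-fold, 0.0132) lost their calls without any 1 library (up to 0.102 and 0.11). Genes of alternative activation, the state that interleukin 4 and interleukin 10 induce, had 5 of 14 tested, with 3 higher, 0 lower and a median of 0.33. Il10ra, a chain of the interleukin 10 receptor, rose 5.31-fold from 0.75 to 3.98 FPKM (adjusted p = 0.00282). Stat6 and Il10rb rose 1.45-fold and 1.27-fold (adjusted p = 0.0258 and 0.0269) and lost the call without any 1 library (up to 0.169), and Chil3 and Retnla, the usual products of that state, were listed at 0 throughout.

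Markers of macrophages in other organs were mostly silent, with Spic as the exception. Spic, a transcription factor of splenic red pulp macrophages, was the 1 tested gene of 8 and rose 8.06-fold, from 0.410 and 0.443 FPKM to 3.52 and 3.36 FPKM (log2 change 1.64, adjusted p = 0.000922). Spic was tested only because of its CD38 KO libraries, so its call says nothing about the list. The Kupffer cell marker Clec4f was listed at 0 in all libraries, and Vsig4 reached 0.0280 FPKM in WT 2 and was listed at 0 elsewhere. So Spic, Marco and Cd5l were present without Clec4f, Vsig4 or Timd4.

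Other cell types that carry some of the 10 genes were checked by their own markers. Of 9 endothelial and lymphatic genes, relevant to Lyve1, 2 were tested and 0 called. The summed level of the 9 was 5.67 to 6.16 FPKM in WT and 5.94 to 6.59 FPKM in CD38 KO, mostly from the tested Egfl7 and Prox1. By non-overlap, 3 of the 9 were higher in CD38 KO and 2 lower, against 30.4% and 29.5% of tested genes. The higher ones included Pecam1 (0.542 and 0.214 against 1.39 and 1.10 FPKM) and Cdh5 (0.0681 and 0.111 against 0.252 and 0.520 FPKM), both untested. Of 7 platelet genes, relevant to Pf4, 1 was tested and 0 called, and of 9 monocyte and dendritic genes 1 was tested and 0 called, with Ly6c2 listed at 0 throughout. Among 10 neutrophil genes 1 was tested and 0 called, and of 10 lymphocyte genes none reached 1 FPKM in any library. The 5 tested fibroblast and meningeal genes gave 0 calls, with sums of 26.8 and 37.7 FPKM in WT and 62.5 and 35.0 FPKM in CD38 KO that overlap between genotypes. Of the 10 tested genes of these lists limma called 0 (1 at an unadjusted p under 0.05, the collagen gene Col1a1, higher), and another tool was not run. Of 12 astrocyte genes 2 rose and 7 fell, with a median log2 change of -0.24. Their sums were 4841 and 4783 FPKM in WT and 4059 and 3961 FPKM in CD38 KO. Glul and Gfap were the largest parts of these sums, at 1677 and 1360 FPKM in WT and 1214 and 1211 FPKM in CD38 KO. Aldh1l1 rose 1.22-fold (adjusted p = 0.0123) and Gja1 1.19-fold (adjusted p = 0.0194). Aldoc fell from 364 to 259.7 FPKM (adjusted p = 0.00431), Glul 1.38-fold (0.0065), S100b 2.61-fold (0.00484) and Sox9 1.25-fold (0.00841), of which Aldoc alone was called in all 4 fits without 1 library and Sox9 alone without a filter (0.0467, against 0.0536 for Aldoc). Without 1 library the lower genes numbered 1 (WT 2 left out) to 4 (CD38 KO 2 left out).

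**Figure D4:**
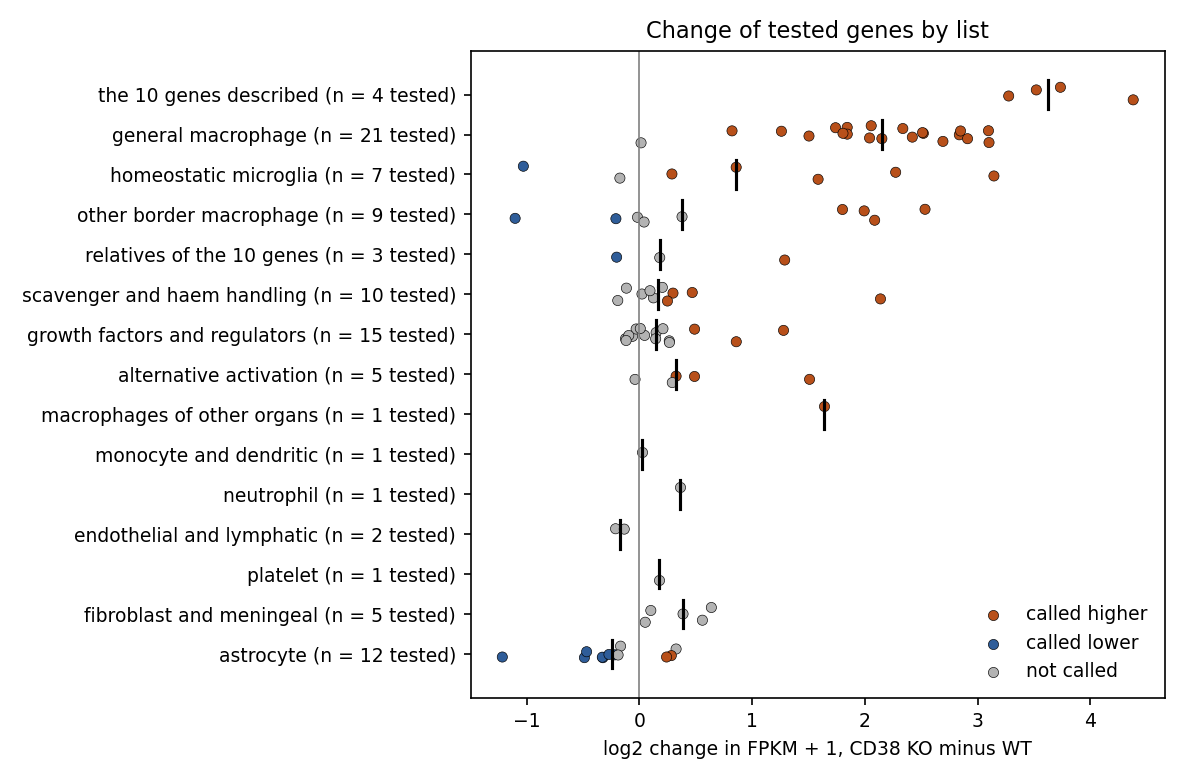
Change in log2(FPKM + 1) from WT to CD38 KO for each tested gene of each list, 1 point per gene, with a black bar at the list's median and colour for the limma call. The 4 tested genes of the 10 lie between 3.28 and 4.38, the general macrophage genes between 0.02 and 3.10, and the genes of other cell types, astrocytes included, between -1.22 and 0.64.

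Among 11985 tested genes other than the 10, leaving out those with Gm numbers or Rik names, the profiles over the 4 libraries closest to the median profile of Marco, Cd5l, Cd209f and Cd209g were those of Wfdc17, Cd52, Snora20, Fcrls, C1qc and Bcl2a1b. Likeness was the Euclidean distance between centred log2(FPKM + 1) values, which was 0.462 for Wfdc17 and 0.575 for Bcl2a1b, against 0.105 for Cd5l and 0.751 for Cd209f within the group itself. Wfdc17, a small secreted protein of myeloid cells, measured 5.59 and 6.92 FPKM in the WT libraries against 75.4 and 78.2 in the CD38 KO libraries. Cd52, a surface glycoprotein of leukocytes, was at 8.43 and 8.95 against 94.6 and 84.6 FPKM. Bcl2a1b, a survival gene with near-identical copies whose fragments could be split, was at 1.60 and 0.875 against 18.5 and 17.1 FPKM. Snora20, a small nucleolar RNA, was listed at 0 in both WT libraries, and its short length makes its FPKM uncertain. Of the 6, 5 are thus protein-coding genes known from myeloid cells or microglia, and the likeness was measured over 4 libraries in 2 groups.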

How the data were processed

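Libraries were stranded and polyA-selected, per the labels' protocols, and bcl2fastq 2.17, STAR 2.7.0f, Cufflinks 2.2.1 and GRCm38 are named in the submitters' processing notes. The deposited values are FPKM per gene, per the file headers. The sources used here state neither the annotation release nor whether libraries were scaled to each other. Positions come from GENCODE M21, which matched 55140 of 55467 IDs.

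Depth was fitted from the steps of low FPKM values in 17444 genes with 1 transcript over 600 bases, where 91.8% to 92.4% of values below 10 fragments fell within 0.1 of a whole number. A member's fragments assume its longest coding transcript. Intervals (95%, exact) and the floor of 3 fragments cover counting error only.

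Genotypes were compared on log2(FPKM + 1) by limma 3.58.1 (R 4.3.3), genotype as the only term, with a trend, over the 13064 genes that averaged 1 FPKM or more, and Benjamini-Hochberg adjustment at 0.05. With 2 libraries against 2 an exact permutation test cannot pass that threshold. Folds are ratios of mean FPKM without the added 1, so at low levels they exceed what the log2 change gives. On simulated data with 13064 genes and normal noise, limma recovered 94.3% of 336 log2 changes of 2 over 5 runs. It recovered 81.0% of 336 changes of 1 and 40.5% of 328 changes of 0.5, and 2.7% of its calls were false. Far fewer genes changed per run than were called here, so these rates are not the power of this comparison. Python 3.11.15 was used for the rest.

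The members, the 15 lists (184 genes) and the rule for naming genes were chosen with earlier results of these data known. The rule named the 10 members, Cd38, up to 4 called genes of smallest p per list and the 6 genes of nearest profile; other genes were named after their values were seen. The lists hold 1 gene that is counted but not reported here.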

Additional observations from a re-analysis of the deposited data

How the results depend on the processing

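Marco, Cd5l, Cd209f and Cd209g stayed higher in CD38 KO in all 14 alternatives. They were chosen on this contrast in the same libraries, and Cd209g was tested only through CD38 KO, so nothing is read from that. No named gene with a reported call changed direction in any alternative that tested it. Cd163, never tested, differed by -0.00439 to 0.0200 FPKM without 1 library and so changed sign. The alternatives were another value added before the log, filter, scaling, moderation or block, and each library left out. The fits without 1 library called 306 to 458 genes higher and 225 to 284 lower against 1045 and 830, and assume that the lone library varies like the other genotype. No filter gave 430 and 312.

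Whether the replicate numbers pair the libraries is not stated in the sources used here. The replicate differences of the genotypes correlated at r = -0.16 across 13064 genes, genes not being independent. That gives no sign of pairing, but 1 difference per genotype cannot exclude it. The replicate block gave 610 higher and 427 lower. Crossing the numbers, a pairing chosen after seeing the data, gave 1102 and 859, with 3 fibroblast and meningeal genes higher and 0 relatives lower.

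Without 1 library the calls were 1 to 1 lower for other border macrophage genes, 3 to 3 higher for microglial genes, 0 to 1 higher and 0 to 0 lower for relatives, 1 to 1 higher for scavenger and haem handling, regulators and alternative activation each, and 0 to 1 higher and 1 to 4 lower for astrocyte genes. No filter left 1 call in each of other border lower, scavenger, regulator, alternative activation, astrocyte higher and astrocyte lower genes (Sox9 and not Aldoc, adjusted p = 0.0467 and 0.0536), and 0 relatives lower. It added 1 neutrophil gene (Csf3r, named after its values were seen), and the 1 relative higher was then Havcr2 and not Msr1 (0.0438 and 0.0934). A filter at 5 FPKM left 1 other border gene lower, 2 microglial genes higher and 0 lower, 0 relatives higher, 1 regulator higher and 0 genes of other organs. The replicate block left 1 other border gene lower, 0 relatives lower and 1 scavenger gene higher, and moderation without trend left 1 other border gene lower, 0 relatives lower and 0 astrocyte genes higher. Fewer libraries or genes tested are part of these settings, and the cause of the other shifts was not tested.

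With Cd14 and Lyz2 left out of the macrophage sum, chosen after seeing the data, the CD38 KO over WT ratio was 4.09 for Cd209f, 4.83 for Cd209g, 1.91 for Marco and 2.37 for Cd5l. Cd163, Lyve1 and Timd4 rest on 1 to 4 fragments where detected, so depth limits any comparison of them.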
